A study of Mus musculus with 5 samples.

Results

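In all, 10 genes of meiosis and the germline were followed through an RNA immunoprecipitation (RIP) experiment in mouse embryonic stem cells: Spata24, Cyct, Rec114, Meiob, Sycp1, Sycp3, Stag3, Mael, Ddx4 and Dazl. The members were the probe sets that the platform's probe-to-gene table assigns to these symbols, with no filter on level. The 10 genes had 1 probe set each, out of 19937 genes measured by 21640 probe sets with a single gene symbol. They were chosen with values of these arrays known, for being expressed in the stem cells and, in several cases, for lying above input in the control RIPs or differing between the lysates. Their differences in those comparisons are therefore a description and carry no test.

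RNA bound to a FLAG-tagged protein was recovered from R1 cells, a male mouse embryonic stem cell line (strain 129X1 x 129S1) grown with LIF and serum, and was hybridised to Affymetrix arrays. The 5 arrays came from 5 groups of 1 array each. The first was the anti-FLAG RIP from a line that expresses the RNA-binding zinc finger protein MKRN1 fused to FLAG (FLAG:MKRN1). The second was the RIP with IgG antibodies from the same FLAG:MKRN1 lysate, and the third the anti-FLAG RIP from a line with the FLAG construct alone (FLAG:Ctrl). The fourth and the fifth were the total RNA of the FLAG:MKRN1 and FLAG:Ctrl lysates, taken before precipitation and called inputs. The second and the third are the control RIPs, which show RNA recovered without the tagged protein as bait. Both lines carry G418 resistance and a constitutive pCAGGS expression construct, the labels call them clones, and both were thawed on fibroblast feeders, which passages on gelatin then removed. An equal mass of RNA went into each cDNA reaction, so a value is a share of the recovered RNA and not the amount recovered.

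Meiosis pairs homologous chromosomes, breaks their DNA and repairs the breaks as crossovers. The chromosome axis is built from cohesin and synaptonemal complex proteins, the breaks are made by SPO11 with partners such as REC114, and single-stranded DNA at the breaks is held by proteins such as MEIOB. Germ cells also protect their genome from transposons through piRNAs in cytoplasmic granules, where DDX4 and MAEL act, and regulate mRNAs through proteins such as DAZL. In somatic cells and in embryonic stem cells many of these genes are held down by DNA methylation and by a Polycomb complex, PRC1.6, that contains E2F6, MGA and MAX. Mouse embryonic stem cells are known to transcribe some of them nonetheless.

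Every value below is the log2 value of a probe set as deposited. Since each group is 1 array, replicate error is unknown, no test was run and no difference has a replicate check. Column medians ran from 5.68 to 5.88. Across probe sets the control RIPs had a Pearson's r of 0.992, and r ran from 0.959 to 0.967 for the anti-FLAG RIP from the FLAG:MKRN1 line against each other array, which thus stands apart. Mkrn1 itself read 11.90 in the anti-FLAG RIP of the FLAG:MKRN1 line, 11.99 in its IgG RIP and 12.20 in the FLAG:Ctrl RIP, against 11.71 in the FLAG:MKRN1 input and 11.80 in that of FLAG:Ctrl, so the arrays do not show the line labelled FLAG:MKRN1 to be the one with more Mkrn1 RNA. Whether its probe set covers the construct's transcript is not known here. That RIP is therefore called the MKRN1-labelled RIP, and directions drawn from its line rest on the labels. The 10 stem cell markers examined, among them Pou5f1, Nanog and Sox2, all had means over the level filter, which is the median of the mean log2 values of the probe sets (5.76). Of all genes 57.7% had means at or above it. Of 8 feeder fibroblast markers 4 were at or above it. Thy1 was the highest of them, at 8.89 in the FLAG:MKRN1 input and 9.88 in that of FLAG:Ctrl. Col1a1 read 6.78 in the FLAG:MKRN1 input and 6.88 in that of FLAG:Ctrl. The means of Pdgfrb, Postn, Dcn and Lum were below the level filter. Of 6 Sertoli and Leydig cell markers measured, 4 were at or above it and Amh and Cyp11a1 were below. The feeder count and this count both lie near the share of all genes.

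**Figure D1:**
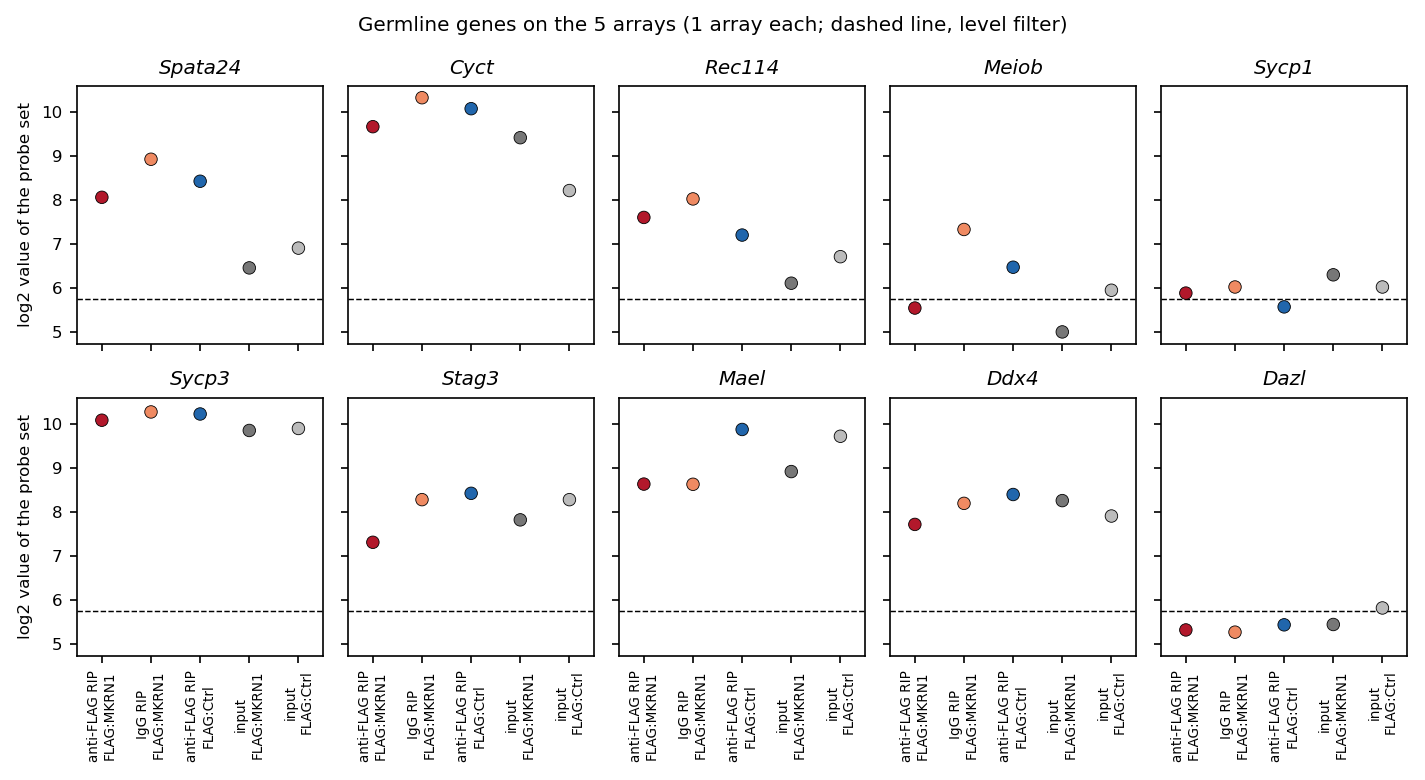
Log2 value of the probe set of each of the 10 genes (1 panel each, y axis) on the 5 arrays (x axis, 1 point per array), with the level filter of 5.76 as a dashed line. Spata24, Cyct and Rec114 lie higher on all 3 RIP arrays than on either input, Sycp3 and Ddx4 range over less than 1 log2 unit, and Dazl lies under the filter on all arrays except the FLAG:Ctrl input.

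The promoters of the genes are shown because the repressors known to hold such genes down read short sequence motifs in them. RefSeq promoter windows (build GRCm38.p6, 250 bases before to 50 bases after the gene's start) matched 8 of the 10 genes by symbol; Meiob and Spata24 were not matched. The letters GCGGGA, the core of the E2F6 site, were searched on both strands, as was CACGTG, the E-box that MGA and MAX bind. The first lay in 7 of the 8 windows and in 5959 of 27025 genes with a window. The second lay in 6 of the 8 and in 8.09% of all genes. Both lay together in 6 of the 8, namely Mael, Sycp1, Stag3, Rec114, Sycp3 and Ddx4, and in 2.65% of all genes. Cyct held the E2F6 core alone and Dazl held neither. The GC content of the 8 windows ran from 47.7% in Rec114 to 72.0% in Ddx4, with a median of 59.2%, beside a median of 52.7% over all windows. Each of the 8 held at least 8 CG pairs, beside a median of 7 over all windows, and the shares over all genes are not matched for base composition. A match describes letters in a window and does not show that a factor binds there. Below are the windows of a gene that was high in the RIPs and differed between the inputs (Cyct), a gene high in both RIPs of FLAG:MKRN1 lysate (Rec114), and 2 genes lower in the MKRN1-labelled RIP than in the other anti-FLAG RIP (Mael, Stag3). Capitals mark GCGGGA, its reverse complement TCCCGC, and CACGTG, which do not overlap one another here.
Cyct, chr2:76360404-76360703, minus strand: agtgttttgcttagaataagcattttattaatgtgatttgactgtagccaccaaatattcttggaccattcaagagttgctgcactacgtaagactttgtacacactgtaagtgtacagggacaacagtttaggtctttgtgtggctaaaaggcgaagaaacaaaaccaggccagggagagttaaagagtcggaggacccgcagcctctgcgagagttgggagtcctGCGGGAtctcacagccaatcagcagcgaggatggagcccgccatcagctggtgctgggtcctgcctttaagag
Rec114, chr9:58741510-58741809, minus strand: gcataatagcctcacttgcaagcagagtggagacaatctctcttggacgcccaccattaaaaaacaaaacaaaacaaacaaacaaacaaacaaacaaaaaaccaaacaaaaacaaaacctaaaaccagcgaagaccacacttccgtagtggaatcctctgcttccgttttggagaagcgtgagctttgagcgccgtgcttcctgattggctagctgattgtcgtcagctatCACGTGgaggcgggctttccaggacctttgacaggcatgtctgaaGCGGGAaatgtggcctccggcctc
Mael, chr1:166238695-166238994, minus strand: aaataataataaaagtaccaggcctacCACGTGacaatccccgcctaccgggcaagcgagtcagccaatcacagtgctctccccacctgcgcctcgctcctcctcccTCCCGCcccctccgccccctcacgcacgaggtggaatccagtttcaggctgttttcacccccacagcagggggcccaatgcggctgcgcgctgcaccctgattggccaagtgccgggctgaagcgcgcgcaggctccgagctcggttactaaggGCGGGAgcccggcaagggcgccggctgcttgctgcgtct
Stag3, chr5:138280259-138280558, plus strand: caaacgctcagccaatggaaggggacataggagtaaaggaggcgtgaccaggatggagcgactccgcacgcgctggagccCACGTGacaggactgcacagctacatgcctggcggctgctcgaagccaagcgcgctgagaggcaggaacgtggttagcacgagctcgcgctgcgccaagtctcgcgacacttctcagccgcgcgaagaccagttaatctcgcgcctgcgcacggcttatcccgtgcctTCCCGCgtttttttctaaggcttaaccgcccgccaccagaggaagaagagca

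Spata24, a testis gene whose protein binds the TBP-related factor TBPL1, was the one gene of the 10 at least 2-fold above its own input in every RIP. It read 8.06 in the MKRN1-labelled RIP, 8.92 in the IgG RIP and 8.42 in the FLAG:Ctrl RIP, against 6.45 in the FLAG:MKRN1 input and 6.90 in that of FLAG:Ctrl. The 3 RIP arrays all lie above both inputs, with the IgG RIP highest. The difference from the input of the same lysate came to 3.04-fold in the MKRN1-labelled RIP, 5.53-fold in the IgG RIP and 2.86-fold in the FLAG:Ctrl RIP. In the IgG RIP it had the highest difference from input of all 19937 genes. Of all genes 0.0451% were at least 2-fold above input in all 3 RIPs (0.0782% of the 11502 genes at or above the level filter), and 0.105% were in both control RIPs (0.183%). By any amount, 5 of the 10 genes lay above input in all 3 RIPs, as did 13.3% of all genes and 20.3% of those at or above the filter. Tbpl1, the partner, differed from its input by 0.36 in the IgG RIP and 0.46 in the FLAG:Ctrl RIP.

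Cyct encodes the testis form of cytochrome c. It read 9.66 in the MKRN1-labelled RIP, 10.32 in the IgG RIP and 10.07 in the FLAG:Ctrl RIP, against 9.41 in the FLAG:MKRN1 input and 8.21 in that of FLAG:Ctrl. The 2 inputs lie far apart and the 3 RIPs close together, so the difference from input is not alike in the lysates. It was 1.86 in the FLAG:Ctrl RIP (3.63-fold), the fifth highest of all genes, 0.91 in the IgG RIP (1.88-fold) and 0.25 in the MKRN1-labelled RIP. Between the inputs Cyct was 2.30-fold higher in FLAG:MKRN1 lysate. Cycs, which encodes the somatic cytochrome c, did not have this pattern, with a difference of -0.12 between the inputs, 0.36 in the IgG RIP and 0.08 in the FLAG:Ctrl RIP. Whether probes are shared between the paralogs was not tested.

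Rec114 encodes a partner of the enzyme that makes meiotic DNA breaks. It read 7.60 in the MKRN1-labelled RIP, 8.02 in the IgG RIP and 7.20 in the FLAG:Ctrl RIP, against 6.11 in the FLAG:MKRN1 input and 6.71 in that of FLAG:Ctrl. All RIP values lie above both input values. Both RIPs of FLAG:MKRN1 lysate were far above their input, by 1.49 with anti-FLAG (2.81-fold) and 1.91 with IgG (3.77-fold), and the FLAG:Ctrl RIP was above its own by 0.49. These 2 larger differences share the FLAG:MKRN1 input, on which Rec114 had its lowest value.

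Meiob encodes a single-stranded DNA-binding protein related to RPA1 that acts in meiotic recombination. It read 5.54 in the MKRN1-labelled RIP, 7.33 in the IgG RIP and 6.47 in the FLAG:Ctrl RIP, against 5.00 in the FLAG:MKRN1 input and 5.95 in that of FLAG:Ctrl. The IgG RIP is highest, and the 2 lowest values are under the level filter. The difference from input was 2.33 in the IgG RIP (5.01-fold), or 1.57 with values raised to the filter, 0.54 in the MKRN1-labelled RIP (0.00 with values raised) and 0.52 in the FLAG:Ctrl RIP. Rpa1, its somatic relative, differed by -0.04 in the IgG RIP and -0.10 in the FLAG:Ctrl RIP.

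Among the genes of the chromosome axis, Sycp3, which encodes a component of the axial element, ranged over 0.42 in all. It read 10.08 in the MKRN1-labelled RIP, 10.27 in the IgG RIP and 10.22 in the FLAG:Ctrl RIP, against 9.84 in the FLAG:MKRN1 input and 9.89 in that of FLAG:Ctrl. Each RIP was above its input by less than 0.5. Sycp1, which encodes the transverse filament of the synaptonemal complex, read 5.88 in the MKRN1-labelled RIP, 6.02 in the IgG RIP and 5.57 in the FLAG:Ctrl RIP, against 6.30 in the FLAG:MKRN1 input and 6.02 in that of FLAG:Ctrl. It thus lay below its own input in all 3 RIPs, by 0.28 to 0.45, with values close to the level filter.

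Stag3, a meiosis-specific cohesin subunit gene, was lowest in the MKRN1-labelled RIP. It read 7.31 there, 8.27 in the IgG RIP and 8.42 in the FLAG:Ctrl RIP, against 7.82 in the FLAG:MKRN1 input and 8.27 in that of FLAG:Ctrl. The MKRN1-labelled RIP differed from its input by -0.51, while the IgG RIP differed from the same input by 0.46 and the FLAG:Ctrl RIP from its own by 0.14. The somatic paralogs Stag1 and Stag2 lay further below, at -1.51 and -1.62 from input in the MKRN1-labelled RIP.

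Mael, a gene of transposon silencing in germ cells, separated the lysates rather than the RIPs. It read 8.63 in the MKRN1-labelled RIP, 8.62 in the IgG RIP and 9.87 in the FLAG:Ctrl RIP, against 8.91 in the FLAG:MKRN1 input and 9.71 in that of FLAG:Ctrl. All 3 arrays of FLAG:MKRN1 lysate lie below both arrays of FLAG:Ctrl lysate. The difference from input was -0.28 in the MKRN1-labelled RIP, -0.29 in the IgG RIP and 0.15 in the FLAG:Ctrl RIP. Ddx4, the mouse vasa gene, which encodes an RNA helicase of germ granules, read 7.71 in the MKRN1-labelled RIP, 8.19 in the IgG RIP and 8.39 in the FLAG:Ctrl RIP, against 8.25 in the FLAG:MKRN1 input and 7.90 in that of FLAG:Ctrl. Its range of 0.68 was small, with the MKRN1-labelled RIP lowest.

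Dazl, which encodes a germ cell RNA-binding protein that promotes translation, ran from 5.27 in the IgG RIP to 5.82 in the FLAG:Ctrl input. It was the 1 gene of the 10 whose mean lay under the level filter, and it was under it on 4 of the 5 arrays. Its differences are given and counted below but are not interpreted.

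**Figure D2:**
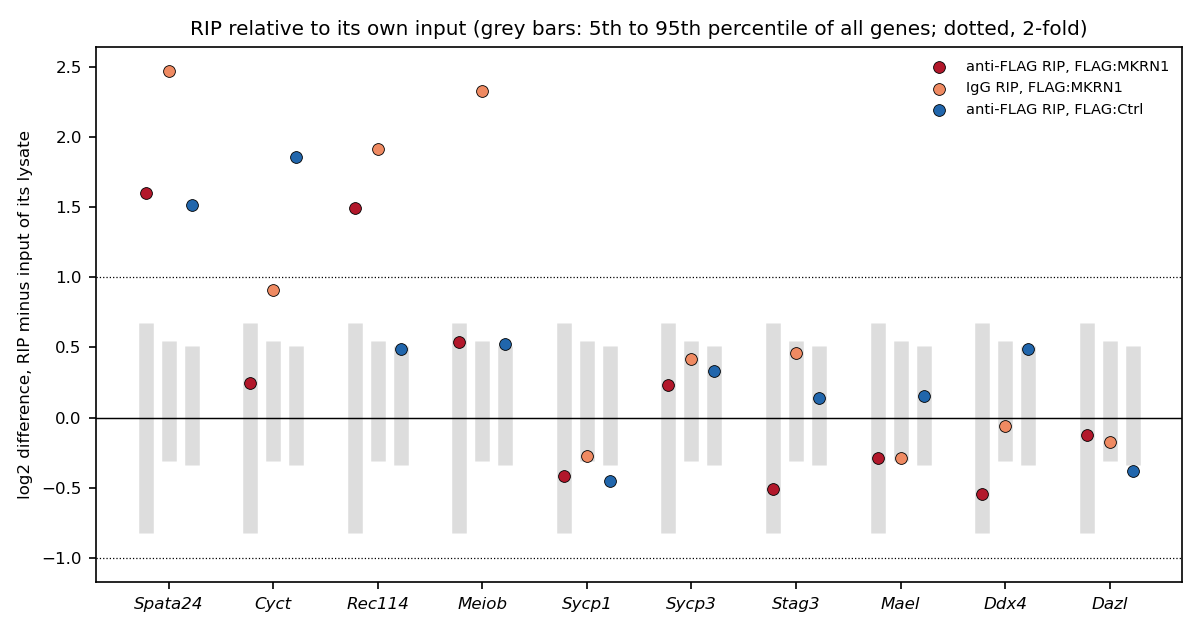
Log2 difference between each RIP and the input of its own lysate (y axis) for the 10 genes (x axis), with 1 point per RIP, grey bars for the 5th to 95th percentile over all 19937 genes in that RIP, and dotted lines at 2-fold. Spata24 is above 2-fold in all 3 RIPs, Rec114 in both RIPs of FLAG:MKRN1 lysate, Meiob in the IgG RIP and Cyct in the FLAG:Ctrl RIP.

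Counted together, 2 of the 10 genes were at least 2-fold above input in the MKRN1-labelled RIP (Rec114, Spata24), where 1.57% of all genes were, and 2.47% of those at or above the level filter. In the IgG RIP 3 were (Meiob, Rec114, Spata24), beside 0.798% of all genes and 1.32% above the filter. In the FLAG:Ctrl RIP 2 were (Spata24, Cyct), beside 0.572% and 0.948%. No member was at least 2-fold below input in any of these RIPs. Genes that low made up 3.23% of all genes and 5.51% above the filter in the MKRN1-labelled RIP. The IgG RIP had 0.321% and 0.461%, and the FLAG:Ctrl RIP 0.261% and 0.374%. The median difference from input of the 10 genes was 0.05 in the MKRN1-labelled RIP, 0.44 in the IgG RIP and 0.41 in the FLAG:Ctrl RIP, beside medians over all genes of 0.07, 0.00 and 0.00. The members were partly picked by these contrasts, so these counts describe the choice. Of the 10 genes, 4 were at least 2-fold above input in at least 1 control RIP, and the other 6 were not 2-fold from input in either.

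The inputs show the steady-state RNA of the lines. In the FLAG:MKRN1 input 7 of the 10 genes were lower than in the FLAG:Ctrl input and 3 were higher, with a median of -0.41 beside 0.00 over all genes. Of all genes 34.7% were higher there, and 23.8% had equal values on both inputs. The members were partly picked for differing between the lysates, so these signs describe the choice. Cyct was the 1 gene at least 2-fold higher, beside 0.572% of all genes and 0.878% above the level filter. None was at least 2-fold lower, beside 0.497% and 0.791%. Meiob differed by -0.95 (1.93-fold lower; -0.19 with values raised to the level filter), Mael by -0.80 (1.74-fold lower) and Rec114 by -0.60. Stag3 at -0.46, Spata24 at -0.45, Dazl at -0.38 and Sycp3 at -0.05 were lower by less, and Ddx4 at 0.35 and Sycp1 at 0.28 were higher. In such bulk RNA, fewer cells that express a gene and less RNA per cell cannot be told apart. Markers of other cell states also differed between these inputs. Of 7 two-cell-like markers 2 were measured, with a median difference of 1.28 between the FLAG:MKRN1 input and that of FLAG:Ctrl. Tcstv3 was higher by 2.25 and Usp17la was under the level filter on every array. The 8 feeder fibroblast markers had a median difference of -0.05, with Thy1 at -0.99 and Pdgfrb, whose mean is under the level filter, at -0.67. The stem cell marker Klf4 was lower by 1.17, and the 10 stem cell markers averaged 10.90 in the FLAG:MKRN1 input and 11.03 in that of FLAG:Ctrl. The 7 primordial germ cell markers had a median difference of 0.03 but did not move together. Prdm1 differed by 0.80, Dppa3 by 0.63 and Tfap2c by 0.51, while Prdm14 differed by -0.85 and Kit by -0.45. Nanos3 at -0.02 and Dnd1 at 0.03 hardly differed. The part of these in the members' differences was not tested.

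The lysates can also be set against each other through the control RIPs, on arrays that the inputs do not share, although antibody and lysate change together there and cannot be told apart. The members were partly picked by values of these arrays and of the inputs, so their signs here describe the choice. The IgG RIP minus the FLAG:Ctrl RIP was -1.24 in Mael (2.37-fold lower), the tenth lowest of all genes, where 0.125% of all genes and 0.174% above the level filter were at least 2-fold lower. No member was at least 2-fold higher, beside 0.181% and 0.278%. Mael was thus lower in FLAG:MKRN1 lysate both in the inputs and in the control RIPs, and Cyct was higher in both, by 2.30-fold and 1.19-fold. For Meiob, Rec114 and Spata24 the sign turned. They were lower in the FLAG:MKRN1 input and higher in the IgG RIP, by 0.86, 0.82 and 0.50. In all, 5 of the 10 genes had the same sign in both comparisons and 5 the opposite sign. Dazl is counted with the same sign, though its control RIPs differed by 0.00 with values raised to the level filter. Over all genes 7297 had the same sign and 4926 the opposite.

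**Figure D3:**
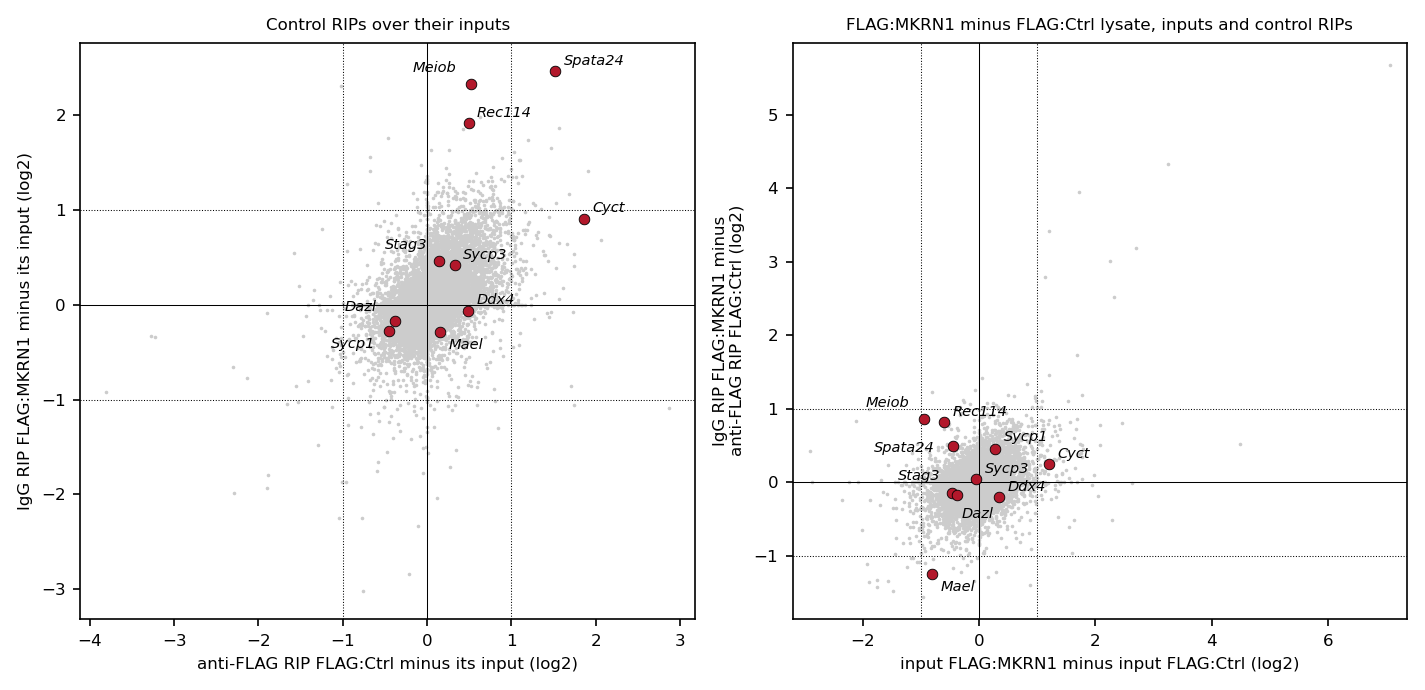
Left, log2 difference from input in the IgG RIP of FLAG:MKRN1 lysate (y axis) against that in the FLAG:Ctrl RIP (x axis). Right, difference between the control RIPs (y axis) against difference between the inputs (x axis), FLAG:MKRN1 minus FLAG:Ctrl. Grey points are the 19937 genes, red points the 10 named genes, and dotted lines mark 2-fold. Spata24, Meiob and Rec114 lie at the top on the left, and on the right Mael lies low on both axes while Meiob, Rec114 and Spata24 lie low on one and high on the other.

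The MKRN1-labelled RIP asks which RNAs came down with the tagged protein beyond background. None of the 10 genes was at least 2-fold higher there than in either control RIP, where 1.12% of all genes (1.62% above the level filter) were higher than in the FLAG:Ctrl RIP and 1.07% (1.53%) than in the IgG RIP. Against the FLAG:Ctrl RIP, Mael was lower by 1.24 and Stag3 by 1.11, and they were the 2 members at least 2-fold lower, beside 4.16% of all genes and 7.11% above the filter. After quantile normalization these came to -0.97 and -0.98, short of 2-fold, and Meiob, -0.93 as deposited and -0.71 once raised to the filter, came to -1.10. Against the IgG RIP of the same lysate Meiob was lower by 1.78 (3.44-fold), or 1.57 with its value in the MKRN1-labelled RIP, which is under the level filter, raised to it, and it was the 1 member at least 2-fold lower, beside 4.03% of all genes and 6.94% above the filter. Stag3 at -0.97 and Spata24 at -0.86 came close, and passed 2-fold at -1.15 and -1.04 with each array centred on its median. Mael differed by 0.00 from the IgG RIP, so its difference from the FLAG:Ctrl RIP is not seen within the lysate. As deposited, no member was at least 2-fold below both control RIPs, beside 3.13% of all genes and 5.41% above the filter. With each array centred on its median 2 members were, Stag3 (-1.32 against FLAG:Ctrl, -1.15 against IgG) and Meiob (-1.13 and -1.96). By any amount, 6 members (Meiob, Spata24, Cyct, Sycp3, Stag3 and Ddx4) lay below both, as did 27.5% of all genes and 44.4% of those at or above the level filter. Sycp3 changed to above both after quantile normalization, by 0.14 over the FLAG:Ctrl RIP and by 0.08 over the IgG RIP. Both comparisons use the same array of the MKRN1-labelled RIP. Centring each array on its median moved the median of all genes against the FLAG:Ctrl RIP to -0.15, where it was 0.06 as deposited.

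Other genes of the same pathways were taken from lists by function. Beside the 10 genes, 80 germline genes were measured and 41 of them were at or above the level filter. None of the 80 was at least 2-fold above or below input in either control RIP. Of all genes 0.798% were that far above and 0.321% below in the IgG RIP, and 0.572% and 0.261% in the FLAG:Ctrl RIP. With shares this small, the absence does not set the 80 apart. Their median difference was 0.00 in both control RIPs, genes under the filter included. Among the 41 above the filter the median was 0.11 in the IgG RIP, beside 0.004 over all genes that passed the filter. In the FLAG:Ctrl RIP it was 0.16, beside 0.011. Of the 41, 25 lay above 0 in the IgG RIP and 26 in the FLAG:Ctrl RIP. The share above 0 among all genes that passed the filter was not counted, so these counts have no matched background. Whether the 41 differ from other genes was not tested. The other germline genes nearest to 2-fold were Tdrd5 and Tex11. Tdrd5, a Tudor-domain gene of the piRNA pathway, was at 0.98 in the IgG RIP and 0.66 in the FLAG:Ctrl RIP. Tex11, a meiotic crossover gene, was at 0.88 in the IgG RIP and 0.80 in the FLAG:Ctrl RIP. Taf7l, a TFIID subunit gene of germ cells, had 0.80 in the IgG RIP and 0.87 in the FLAG:Ctrl RIP, and Stra8, which acts at meiotic entry, had 0.51 in the IgG RIP and 0.77 in the FLAG:Ctrl RIP. Among partners of the members, Mei4, which acts with REC114, read -0.05 in the IgG RIP and -0.51 in the FLAG:Ctrl RIP. It did not share the pattern of Rec114, though it lay near the level filter. Psmc3ip, which helps strand exchange, had 0.82 in the IgG RIP and 0.48 in the FLAG:Ctrl RIP. Rpa3, a replication protein A subunit gene, was the 1 of 7 genes of somatic strand exchange at least 2-fold above input in the IgG RIP, beside 0.798% of all genes. It was at 1.07 there and had 0.87 in the FLAG:Ctrl RIP.

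In the synaptonemal complex list none of 9 measured genes, Sycp1 and Sycp3 among them, was at least 2-fold from input in any RIP. Of all genes 1.57% were that far above and 3.23% below in the MKRN1-labelled RIP. The shares were 0.798% and 0.321% in the IgG RIP, and 0.572% and 0.261% in the FLAG:Ctrl RIP. With shares this small, the absence does not set the list apart. Syce2, a central element gene, had 0.22 in the MKRN1-labelled RIP, 0.42 in the IgG RIP and 0.57 in the FLAG:Ctrl RIP, and the axis gene Hormad1 had 0.35 in the IgG RIP and 0.36 in the FLAG:Ctrl RIP. In the piRNA list of 20 measured genes, 1 was at least 2-fold from input in the MKRN1-labelled RIP. It was Pld6, a mitochondrial enzyme gene of piRNA processing, at 1.03, named for that reason. Of all genes 1.57% were at least 2-fold above input there, and 2.47% of those above the filter. Tdrd12 and the helicase gene Mov10l1 read 0.72 and 0.44 above input in the IgG RIP, and 0.11 and 0.70 in the FLAG:Ctrl RIP. Of the 80 other germline genes, 1 was at least 2-fold above input in the MKRN1-labelled RIP and 1 below, the receptor gene Kit at -1.11. Of all genes 1.57% were that far above and 3.23% below. Against the FLAG:Ctrl RIP 6 of the 80, all of them among the 41 above the filter, were at least 2-fold lower in the MKRN1-labelled RIP, beside the 4.16% of all genes and 7.11% above the filter given before. They were Exd1 at -1.69, Mov10l1 at -1.60, Kit at -1.42, Ythdc2 at -1.31, Tex11 at -1.25 and Meioc at -1.16. Of these, Ythdc2 was also at least 2-fold lower than in the IgG RIP, by 1.06. Asz1, a gene under the filter, was the 1 of the 80 at least 2-fold higher than in the FLAG:Ctrl RIP, at 1.05, beside 1.12% of all genes.

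The meiotic cohesin genes can be set beside the somatic ones. In the MKRN1-labelled RIP 6 of 9 somatic cohesin genes were at least 2-fold below input (Stag1, Stag2, Rad21, Smc3, Pds5b and Nipbl), beside 3.23% of all genes and 5.51% above the filter. The list median was -1.18, beside 0.07 over all genes. None of the 4 meiotic cohesin genes was, with Stag3 at -0.51, Smc1b at -0.53 and Rec8 at 0.11. Rad21l was under the level filter. In the control RIPs the somatic genes lay near their inputs, with medians of 0.01 in the IgG RIP and 0.07 in the FLAG:Ctrl RIP. No test compares the lists.

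The 20 repressor genes of PRC1.6 and DNA methylation were all at or above the level filter, and none differed 2-fold between the inputs, where the list median was -0.04. Dnmt3l, a cofactor of de novo DNA methylation, had the lowest difference between the inputs of the list, at 8.93 in the FLAG:MKRN1 input against 9.63 in that of FLAG:Ctrl (-0.70). E2f6 went the other way, at 8.40 in the FLAG:MKRN1 input and 7.98 in that of FLAG:Ctrl. Pcgf6 had the highest difference between the inputs of the list, at 0.56, and Hdac2 had 0.49. In the MKRN1-labelled RIP the list had a median of -0.38 from input, with Mga at -1.73 as the 1 gene at least 2-fold lower, named for that reason. Of all genes 3.23% were that low, and 5.51% of those above the filter, so this count lies near the share. Setdb1, a histone methyltransferase gene, read 0.50 above input in the IgG RIP and 0.76 in the FLAG:Ctrl RIP.

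**Figure D4:**
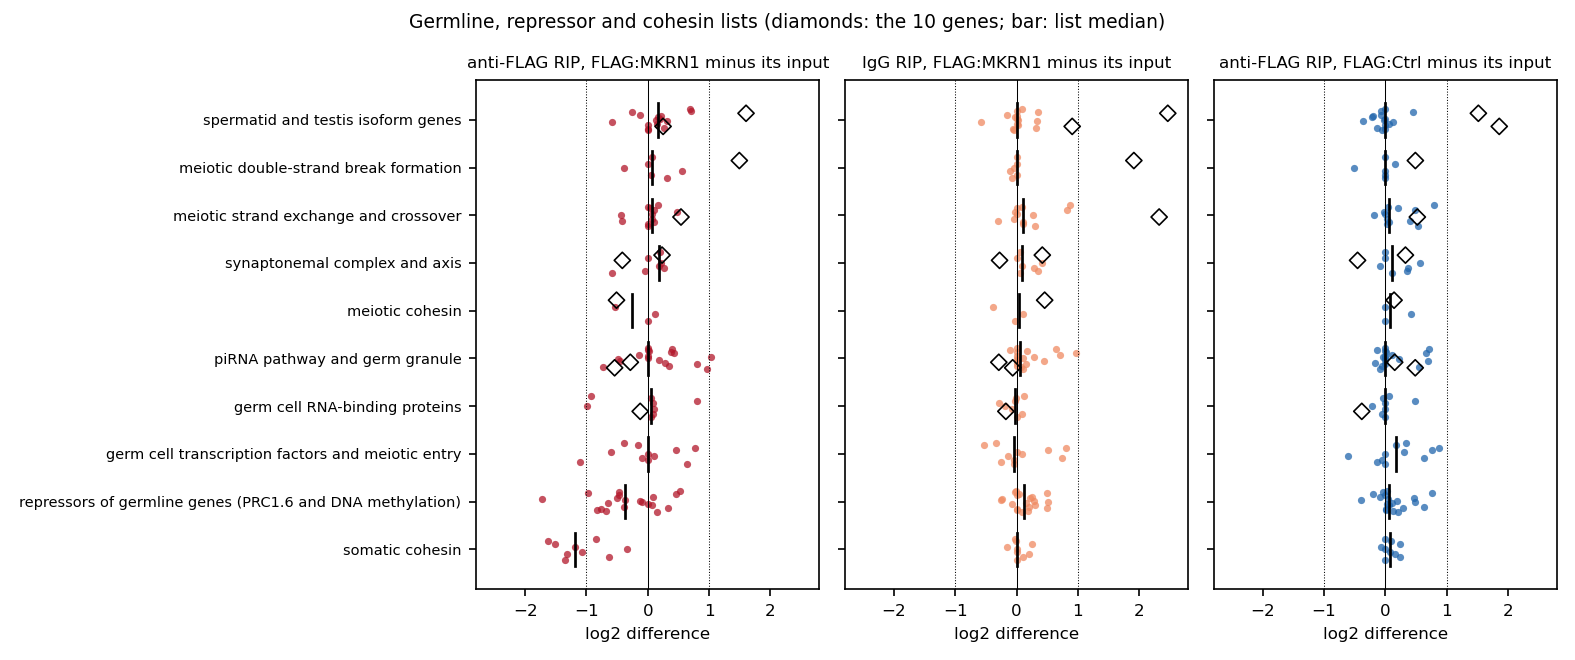
Log2 difference between each RIP and its own input (x axis, 1 panel per RIP) for genes of 8 germline lists, the repressors and somatic cohesin (y axis), with points for single genes, diamonds for the 10 named genes and bars for list medians. In the control RIPs the genes beyond 2-fold (dotted lines) are named genes, and somatic cohesin genes lie to the left in the MKRN1-labelled RIP.

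The 6 members that ranged over at least 1 log2 unit and passed the level filter were matched to other genes that passed the filter, whatever their range. The match used the distance between 5-array profiles, each centred on its own mean. The genes nearest to Mael were Epas1 (distance 0.29), Sparc and Zfp518b. Like Mael, all 3 were lower in the FLAG:MKRN1 input than in that of FLAG:Ctrl, with differences of -0.82 in Epas1, -1.14 in Sparc and -0.77 in Zfp518b. Nearest to Stag3 were Slc37a3 (0.12), Pi4ka and Dhrs7, and nearest to Cyct were Dscc1 (0.43), Akip1 and Cenpq. Spata24 and Meiob had no gene closer than 0.70. Rec114 lay nearest to Hddc2 (0.40), Fabp5 and Lipo3, Spata24 to Ublcp1 (0.71), Mob2 and Hddc2, and Meiob to Bbs5 (0.70), Plgrkt and Eef1akmt2. These distances rest on 5 arrays and describe likeness alone.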

How the data were processed

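RNA of 5 arrays from mouse embryonic stem cells was compared, 1 array per group, grouped by title. The deposited matrix of the authors gives each probe set a log2 value on each array. That scale follows from the range of the values, 2.56 to 14.4. How they were corrected, summarised and normalized is not stated in the labels. Labelling followed Affymetrix procedures, per the labels. Of 34760 probe sets, 21640 had 1 gene symbol in the platform annotation, 1321 several and 11799 none. Symbols were updated through the gene identifiers of 21553 of them in the RefSeq table of GRCm38.p6. Each of 19937 genes was read from its brightest probe set by mean, and 11502 passed the level filter of 5.76. Groups were compared by subtracting log2 values, and 2-fold differences were counted over all genes. No test was possible without replicates, and array signal has no read depth, so the number of arrays limits the precision. Members and gene lists were chosen with earlier results of these data known. Named genes were the members, up to 4 others per list with the largest control RIP difference from input at or above the filter, the somatic paralogs, the 3 nearest profiles per member and Mkrn1. Cell type markers, Kit, Pld6, Asz1, Exd1, Mga, Pcgf6, Rad21, Nipbl and Rad21l lie outside that rule and were named after their values were seen. Between 9.50% and 25.6% of genes had equal values (within 1e-06) on a pair of arrays. Alternatives covered scaling, the level filter, probe-set choice and thresholds. Python 3.11.15, numpy 2.4.6, pandas 2.3.3 and matplotlib 3.10.9 were used.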

Additional observations from a re-analysis of the deposited data

Results flagged for a closer look

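For 3 genes the anti-FLAG RIP lay on opposite sides of its own input in the lysates: below it in FLAG:MKRN1 lysate and above it in FLAG:Ctrl lysate. Ddx4 differed from input by -0.54 in FLAG:MKRN1 lysate and 0.49 in FLAG:Ctrl lysate, a gap of -1.03. Stag3 had -0.51 and 0.14, a gap of -0.65, and Mael -0.28 and 0.15, a gap of -0.44. With 1 array each, the difference between the lysates was not tested.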

How the results depend on the processing

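No paired analysis was possible because each group holds 1 array and the labels give no replicate numbers. Each value rests on a pair of arrays without replicate error, the members have 1 probe set each, and Meiob, Sycp1 and Dazl reach below the level filter on some arrays. The counts of members past 2-fold stayed within 1.5 times under the other settings except as follows. At 4-fold the count was 0 in every comparison except the IgG RIP against its input, where it was 2. At 1.5-fold it was 4 between the inputs, where it was 1 at 2-fold. It was then 4 for the MKRN1-labelled RIP against the FLAG:Ctrl RIP (2 at 2-fold), 4 against the IgG RIP (1 at 2-fold) and 3 for the IgG RIP against the FLAG:Ctrl RIP (1 at 2-fold). Quantile normalization left 1 member for the MKRN1-labelled RIP against the FLAG:Ctrl RIP, and centring on the array median gave 3 against the IgG RIP. Centring on the median over probe sets at or above the filter, chosen after seeing the data, left 1 against the FLAG:Ctrl RIP, with Stag3 just short of 2-fold. No difference past 2-fold changed sign under these settings.

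Over all genes, the share of calls that were higher in the MKRN1-labelled RIP than in the FLAG:Ctrl RIP was 21.2% as deposited, 8.45% centred on the median, 32.9% after quantile normalization and 36.2% centred above the filter. Against the IgG RIP it was 20.9%, 8.27%, 31.4% and 32.5%, and against input 32.7% as deposited and 21.7% centred on the median. Genes at least 2-fold lower than in the FLAG:Ctrl RIP made up 4.16% as deposited and 6.79% centred on the median, and those higher 1.12% and 0.627%, or 1.74% centred above the filter. Against the IgG RIP these were 4.03% and 6.06% lower, and 1.07% and 0.547% higher.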

Other observations

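Sycp1 and Stag3 each had the same value, within 1e-06, on the IgG RIP of FLAG:MKRN1 lysate and on the FLAG:Ctrl input, as 25.6% of all genes did. No other pair of arrays held equal values for any of the 10 genes. The stem cell gene Dppa4, which is not a germline member, read 10.61 in the IgG RIP against 9.61 in its input, and 10.43 in the FLAG:Ctrl RIP against 9.41 in its input, so it was about as far above input in both control RIPs.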
